A study of Brassica oleracea var. italica with 2 samples.

Results

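The miR170 and miR171 records of the table of known miRNAs were described in the shoot apexes of 2 broccoli genotypes. A record is 1 miRBase name with its sequence and its place in the Brassica rapa genome. The members were all records whose name carries miR170 or miR171 and that hold read counts. There were 7 of them, 1 named miR170* and 6 named miR171, of the 169 records with counts in the whole table. A further 37 records of these names were listed without a count, so that 44 of the 1400 records of the table carried one of the names. The label as a GRAS-type family rests on the names and on what is known of their targets, since the tables hold small RNAs only. For the same reason the tissue label was not checked against marker genes.

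By the labels the HT library came from a heat-tolerant and the HS library from a heat-sensitive line. The study's methods name them 'B295' and 'BR1 op', inbred broccoli lines with nearly isogenic backgrounds. The labels give a high curd-forming capacity for HT and a low one for HS. All plants were grown at 22 °C with 18 h of light and 6 h of dark, and the labels give an age of 54 days for both, while the study's text gives other ages. The small RNA was taken from shoot apexes before head formation, and the number of plants behind a library is not given in the sources used here. Each genotype was sequenced as 1 library, so no difference between HT and HS could be checked against replicates. Each test compares these libraries and not the genotypes, and fewer cells of a type and less miRNA per cell cannot be told apart. The HT library held 27069903 reads and the HS library 26253036 reads.

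In plants, miR170 and miR171 guide the cleavage of mRNAs for transcription factors of the GRAS family. In Arabidopsis these targets are the HAIRY MERISTEM genes, also called LOST MERISTEMS, which keep cells of the shoot apical meristem undifferentiated and act in the formation of axillary meristems. A miRNA is cut from a hairpin as a duplex with its partner strand, the miRNA*, which is usually degraded. In Arabidopsis the partner strand of miR171a, whose sequence is the same as that of miR170*, was found to be active itself and to silence SUVH8, a gene of the SU(VAR)3-9 histone methyltransferase family.

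The 7 records held only 4 distinct sequences, all of 21 nt, shown here since the sharing of sequences sets what the counts can tell. They are written in DNA letters from 5′ to 3′, with the seed (bases 2 to 8) in capitals.
miR171a type (records ptc-miR171c, ptc-miR171k and ath-miR171a): tGATTGAGccgcgccaatatc
miR171b type (record smo-miR171a): tTGAGCCGtgccaatatcacg
miR170* (record aly-miR170*): tATTGGCCtggttcactcaga
miR171b* type (records aly-miR171b* and aly-miR171c*): aGATATTAgtgcggttcaatc
miR170 type, without a count (record ath-miR170): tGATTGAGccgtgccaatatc

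The prefix of a record names the species of the miRBase entry that was matched and not the source of the reads, which were all broccoli. The miR171a type and the miR171b type are the mature miRNAs. Aligned with a shift of 3 nt, 17 of 18 bases were identical between them, and the shift gives them different seeds (GATTGAG and TGAGCCG). The sequence called the miR170 type is the one listed for the ath-miR170 record. It differs from the Arabidopsis miR170 entry by T14C and matches the osa-miR171b entry exactly, so it is not miR170 itself. The miR170 type differed from the miR171a type by 1 base (C12T, counted from the 5′ end of the miR171a type) and had the same seed. It had 18 of 18 bases in common with the miR171b type at the same shift of 3 nt. Among the 169 records with counts, the seed GATTGAG stood only on the 3 records of the miR171a type, TGAGCCG only on smo-miR171a and ATTGGCC only on aly-miR170*.

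The miRBase entries to which the reads were matched differed at single positions, counted from the 5′ end with the miRBase base first. The ath-miR171a entry matched its reads exactly, while ptc-miR171c differed by A1T and ptc-miR171k by G1T. The smo-miR171a entry, of a lycophyte, differed by T21G, and its reads have the exact sequence of ath-miR171b, which the table lists on another chromosome without a count. The aly-miR171c* entry differed by G8A from its reads, which are identical to those of aly-miR171b*. The record aly-miR170* matched exactly and also stands for aly-miR171a* and gma-miR171j. In the study's own naming it is bol-miR171e*.

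The most abundant member was the miR170* strand. In HT the aly-miR170* record had 524 reads, a level of 19.4 TPM (95% CI 17.7 to 21.1), and in HS it had 498 reads, a level of 18.97 TPM (95% CI 17.3 to 20.7). TPM is the number of reads per 1000000 reads of the library, and the interval is exact Poisson. The levels of the 2 libraries lie inside each other's interval. It was the 23rd highest of the 169 records in HT and the 15th highest in HS, and among the 51 records named as miRNA* it was the 3rd and the 2nd. The intervals and limits given here cover counting error only, and they treat each read as a separate molecule. Amplified reads that carry no molecular identifier need not be separate molecules, so the limits can be too narrow even for counting error.

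The mature miRNAs were less abundant. For smo-miR171a, of the miR171b type, 89 reads were counted in HT (3.29 TPM, 95% CI 2.64 to 4.05) against 73 in HS (2.78 TPM, 95% CI 2.18 to 3.50). Of the miR171a type, ptc-miR171c was at 1.77 TPM in HT (48 reads) and at 1.33 TPM in HS (35 reads). The ptc-miR171k record was close to it, with 1.63 TPM in HT (44 reads) against 1.30 TPM in HS (34 reads). Of the 7 members, ath-miR171a alone had a lower TPM in HT, with 1.44 TPM (39 reads) against 1.68 TPM (44 reads). For aly-miR171c* there were 3 reads in HT and none in HS, and for aly-miR171b* 2 and none. The exact Poisson upper limit for 0 reads in HS is 0.141 TPM, and both records were at or under the floor of 3 reads (0.111 TPM in HT and 0.114 TPM in HS) in each library.

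By record, the order of levels was the same in the libraries for the first positions. In HT the aly-miR170* record had 5.89 times the reads of smo-miR171a (95% CI 4.69 to 7.46, exact Clopper-Pearson) and in HS 6.82 times (95% CI 5.33 to 8.85). The smo-miR171a record stood above the next member by 1.85 times in HT (95% CI 1.29 to 2.69) and by 1.66 times in HS (95% CI 1.13 to 2.47). The 3 records of the miR171a type followed, and neighbours among them did not differ beyond counting error in either library. Their order was not the same, with ptc-miR171c first in HT and ath-miR171a first in HS. The place of smo-miR171a holds per record only. The 3 records of the miR171a type carry 1 sequence, and their reads add up to 131 in HT and 113 in HS, above the 89 and 73 reads of smo-miR171a. How reads were given to records is not stated, so the order of the mature sequences cannot be told.

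**Figure D1:**
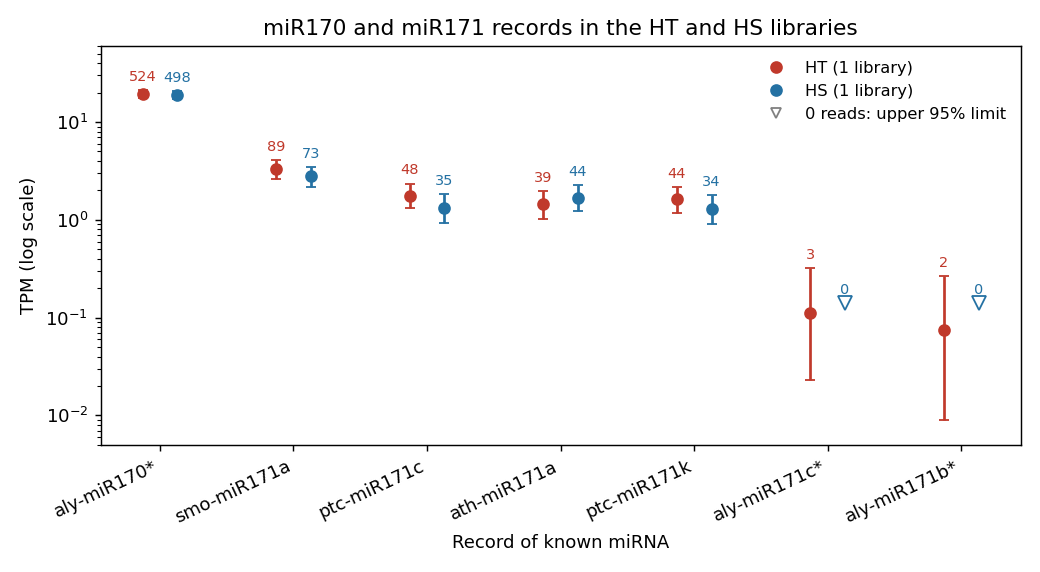
Level in TPM (log scale) of the 7 miR170 and miR171 records in HT (red) and HS (blue), 1 library each. Points are values with exact Poisson 95% intervals, open triangles mark the upper limit where 0 reads were counted, and numbers are reads. The aly-miR170* record stands above the others at 524 and 498 reads, and the intervals of HT and HS overlap for every record.

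To find members that differed between the libraries, Fisher's exact test (two-sided) was run on each of the 169 records, its reads against all other reads of each library. Records were called where p, before adjustment, was under 0.001 and the fold change (HT/HS) exceeded 2 in either direction. Of the 169 records 21 were called (12.4%), 14 higher in HT (8.28%) and 7 lower (4.14%). Of the 7 miR170 and miR171 records 0 were called. The TPM was higher in HT than in HS for 6 of them, 2 of these with 3 reads or fewer, and for 59.2% of all records, a direction that changed for 3 of the 6 when the known miRNA counts served as library size. An unadjusted p under 0.05 was reached by 33.1% of all records and by 0 of these 7, whose p ranged from 0.227 to 0.754 and whose Benjamini-Hochberg adjusted p over all 169 records ranged from 0.486 to 0.952 (Fisher's exact test). Such p-values do not show that the levels were equal, and the intervals say how far apart they could be.

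For aly-miR170* the interval was narrow. Its fold change (HT/HS) was 1.02 (95% CI 0.901 to 1.16, Fisher's exact p = 0.754), and this interval lies within 2-fold in either direction. At its number of reads, any fold change above 2.01 or below 0.499 would have been called.

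The mature miRNAs were measured with less precision. The fold change was 1.18 for smo-miR171a (95% CI 0.858 to 1.63, Fisher's exact p = 0.307), and this interval also lies within 2-fold. It was 1.33 for ptc-miR171c (95% CI 0.843 to 2.12), 1.26 for ptc-miR171k (95% CI 0.784 to 2.02) and 0.860 for ath-miR171a (95% CI 0.544 to 1.35). The intervals of ptc-miR171c and ptc-miR171k reach just past 2, and at their depth a fold change had to exceed 2.25 for ptc-miR171c and ath-miR171a and 2.32 for ptc-miR171k to be called. No fold change was computed for aly-miR171b* and aly-miR171c*. Even with all of their reads in 1 library, the smallest p that Fisher's exact test could give was 0.242 for the 2 reads and 0.119 for the 3 reads, so no difference of theirs was detectable at this depth.

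**Figure D2:**
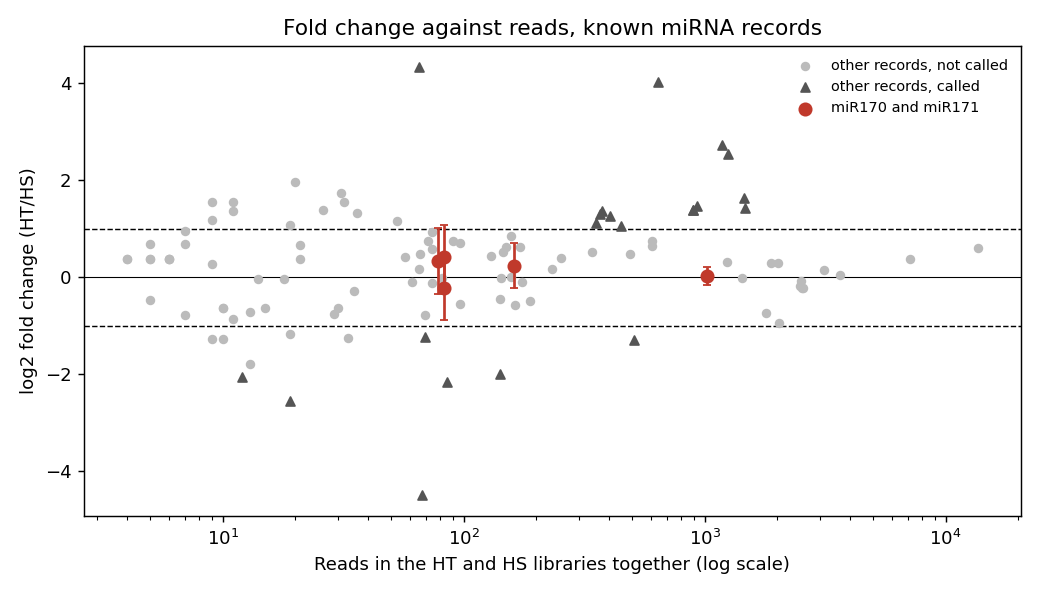
Log2 fold change (HT/HS) against the reads of both libraries together (log scale) for the known miRNA records above 3 reads in at least 1 library, with counts under 3 raised to 3 for the fold change. Red points are miR170 and miR171 with 95% intervals from the exact Clopper-Pearson limits, triangles are other records called, grey points are others, and dashed lines mark a 2-fold change. The 5 red points lie between -0.22 and 0.41 on the log2 scale.

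The 3 records of the miR171a type are an example of counts of 1 sequence that differ between records. Their fold changes were 1.33, 1.26 and 0.860, and the ratio of the highest to the lowest count was 1.23 in HT and 1.29 in HS. The counts cannot be assigned to a locus by sequence. The fold change of ptc-miR171c was 1.54 times that of ath-miR171a (95% CI 0.802 to 2.99, exact conditional interval of the odds ratio). Over the 10 pairs of the 5 members with at least 50 reads, 0 had an interval of this ratio that left out 1. These pairs include those among the 3 records of the miR171a type, which may hold the same reads and so do not compare separate sequences. With their reads added, the 3 records had 131 reads in HT and 113 in HS, a fold change of 1.12 (95% CI 0.867 to 1.46). This interval takes the reads of the 3 records as separate. If the same reads stand on more than 1 of these records, it is too narrow.

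Added over the 7 records, the family came to 27.7 TPM in HT (749 reads) against 26.1 TPM in HS (684 reads). The summed fold change was 1.06 (95% CI 0.956 to 1.18). For the 4 mature records it was 1.15 (220 and 186 reads, 95% CI 0.939 to 1.40) and for the 3 miRNA* records 1.03 (529 and 498 reads, 95% CI 0.910 to 1.17). With each sequence taken once it was 1.06.

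The direction of these small differences depended on the library size. Among the 69 records with at least 50 reads, the median log2 fold change was 0.37 (1.29-fold), and that of the 5 members with as many reads was 0.24 (1.18-fold). The median of the members was thus below that of the table, while ptc-miR171c, at 0.41 on the log2 scale, was above it. Scaling by the sum of the known miRNA counts shifts each log2 fold change by -0.38. That sum is over the 169 records only, 38431 reads in HT and 28582 in HS, or 0.142% and 0.109% of the library. It is well below the number of known miRNA reads that the study's text gives, so it does not stand for all known miRNA reads. The family held 1.95% of these counts in HT (95% CI 1.81 to 2.09, exact Clopper-Pearson) and 2.39% in HS (95% CI 2.22 to 2.58). On that scale the summed fold change was 0.814 (95% CI 0.733 to 0.905) and that of aly-miR170* 0.783 (95% CI 0.691 to 0.886). Fisher's exact test then gave p = 8.7e-05 for aly-miR170*, past the p threshold but not the fold change threshold, so it was not called. Of the 5 members with a fold change, aly-miR170*, smo-miR171a and ptc-miR171k changed direction under this scaling. The ptc-miR171c record stayed above 1 (1.02, 95% CI 0.646 to 1.62) and ath-miR171a below 1 (0.659, 95% CI 0.417 to 1.04). The interval of ath-miR171a then reached past 2-fold lower in HT.

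**Figure D3:**
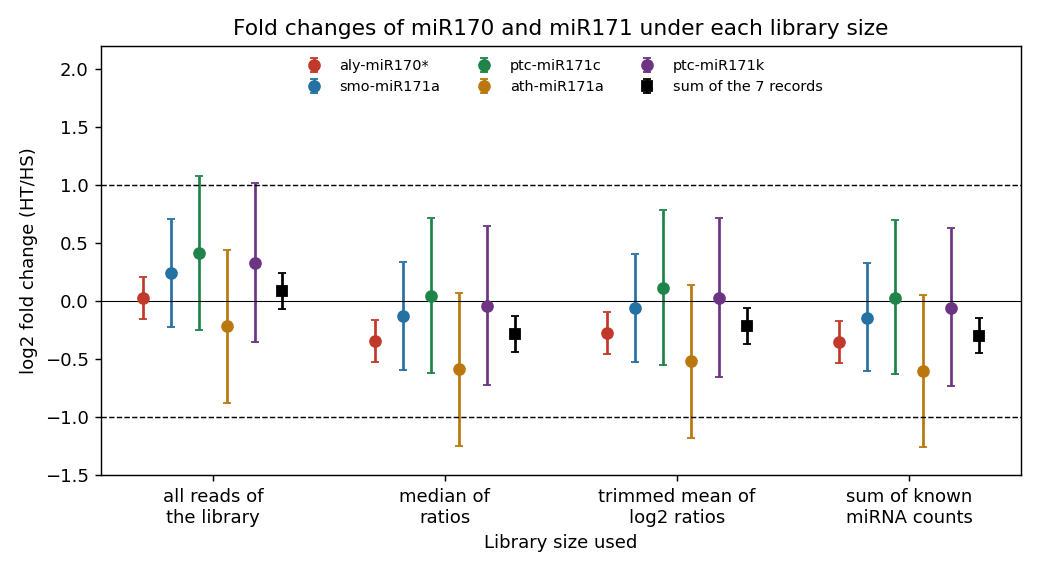
Log2 fold change (HT/HS) of the 5 members above 3 reads and of the sum of the 7 records (black squares) under 4 library sizes, with 95% intervals from the exact Clopper-Pearson limits. Dashed lines mark a 2-fold change. The sum lies at a fold change of 1.06 with all reads of the library and between 0.814 and 0.862 with the others.

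A comparison that does not depend on library size was made with other miRNAs that act on transcription factors of the shoot apex. The ratio of summed fold changes was taken from the odds ratio of the reads. The miR164 records, regulators of the NAC genes of organ boundaries, had 4197 reads in HT and 3161 in HS (6 records, fold change 1.29), and the miR170 and miR171 fold change was 0.825 times theirs (95% CI 0.735 to 0.925). With mature records only the ratio was 0.891 and its interval included 1 (95% CI 0.725 to 1.095). The 16 records of miR165 and miR166, regulators of HD-ZIP III genes of the meristem and of leaf polarity, had 9108 and 8945 reads (fold change 0.987). The ratio to them was 1.08 (95% CI 0.964 to 1.20), so a difference from this sum was not detected. The sum joins numbers on either side of 1, miR165 at 1.24 (95% CI 1.14 to 1.36) and miR166 at 0.961 (95% CI 0.932 to 0.991). The 22 records of miR156 and miR157, which control the SPL genes of phase change, had 3351 and 1322 reads (fold change 2.46). Here the ratio was 0.432 (95% CI 0.382 to 0.489), and it stayed between 0.429 and 0.466 with each sequence once, with mature records only and with a minimum of 10 reads.

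Among 26 miRNA numbers with at least 50 reads, miR170 and miR171 counted as 1 number, 16 had a higher summed fold change and 9 a lower one. The 3 nearest in log2 fold change, over these 2 libraries only, were miR2911 (fold change 1.11, log2 difference 0.07), miR166 (0.961, difference 0.14) and miR824 (0.957, difference 0.15). With 2 libraries, such likeness says no more than that the levels differed by similar factors.

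By the record names, the family had more reads on miRNA* than on mature records. The miRNA* records held 70.6% of the family's reads in HT (529 of 749, 95% CI 67.2 to 73.9, exact Clopper-Pearson) and 72.8% in HS (498 of 684, 95% CI 69.3 to 76.1). The odds ratio between HT and HS was 0.898 (95% CI 0.708 to 1.14), so a difference in this share was not detected. Of 16 numbers with mature and miRNA* counts and at least 50 reads, 4 had over 50% on miRNA* in both libraries, namely miR408 (99.7% in HT and 98.3% in HS), miR398 (86.5% and 77.8%), miR170 with miR171, and miR160 (72.8% and 68.6%). The share rested on 1 record. Without aly-miR170* it was 2.22% in HT (5 of 225 reads) and 0 of 186 reads in HS. Only an asterisk in the name marked a record as miRNA*. So osa-miR168a-3p (41 reads in HT and 40 in HS) counted as mature, whichever arm it comes from. Numbers without mature counts were left out, such as miR403, whose only counted record was aly-miR403* (40 and 57 reads). The 4 of 16 thus depend on the naming and on this selection.

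**Figure D4:**
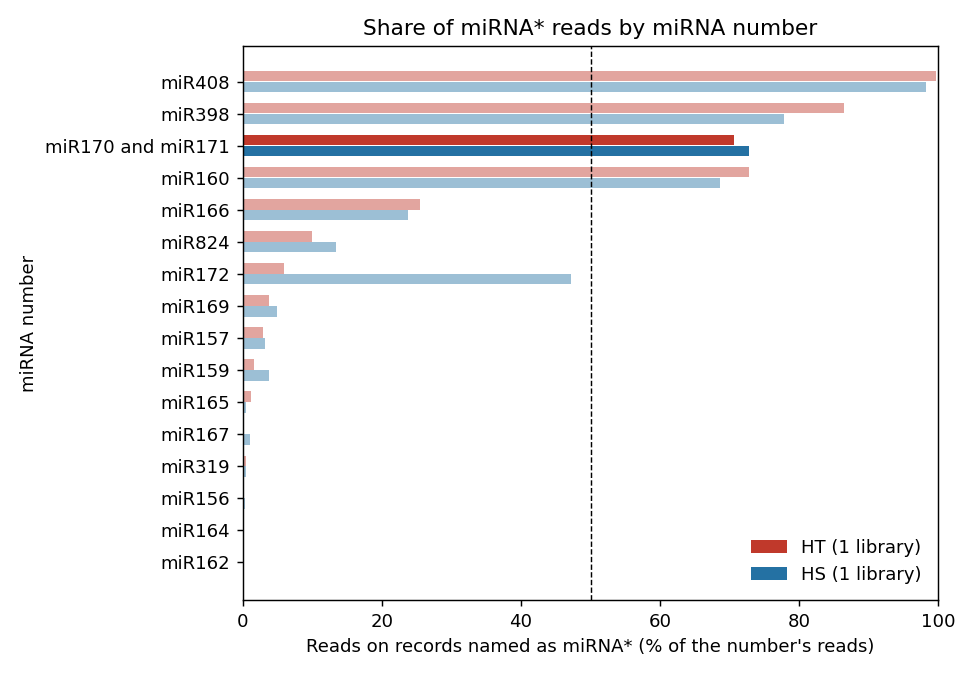
Share of a miRNA number's reads that stood on records named as miRNA*, in % (x axis from 0), for the 16 numbers with at least 50 reads and counts of both kinds. Red bars are HT and blue bars HS, 1 library each, with pale bars for the other numbers and a dashed line at 50%. The bars of miR170 and miR171 reach 70.6% and 72.8%.

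Which mature strand belongs to miR170* was examined by pairing the sequences as a duplex with short overhangs at the 3′ ends. For each pair of sequences the overhang with most pairs, Watson-Crick and G-U together, was kept. With an overhang of 2 nt and 19 facing positions, the miR170* sequence had 15 Watson-Crick pairs and 2 G-U pairs with the miR171a type. The other 2 positions were unpaired. It gave the same numbers with the miR170 type, 15, 2 and 2, so the pairing does not tell these listed sequences apart. The Arabidopsis miR170 entry, which differs from the listed sequence by T14C, was not paired. With the miR171b type the pairing kept had an overhang of 1 nt, with 5 Watson-Crick and 3 G-U pairs over 20 positions. The miR171b* sequence showed the opposite choice, with 14 Watson-Crick and 3 G-U pairs to the miR171b type at an overhang of 2 nt. To the miR171a type it had 5 Watson-Crick and 2 G-U pairs at an overhang of 1 nt. Set against the 3 records of the miR171a type, the 524 reads of aly-miR170* in HT were 4.0 times their sum (95% CI 3.30 to 4.88), and in HS the ratio was 4.41 (95% CI 3.59 to 5.45). The odds ratio between the libraries was 0.908 (95% CI 0.679 to 1.21). These ratios and intervals take the reads of the 3 records as separate. If the same reads stand on more than 1 of these records, the sum is too high and the ratios are too low. The record of most reads alone had 48 in HT (ptc-miR171c) and 44 in HS (ath-miR171a). The reads of aly-miR170* and of these records need not come from 1 hairpin.

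The positions in the B. rapa sequence (version 1.1) put the counted records at 7 separate places. They are given as in the table, where end minus start equals the length, so 1 of the bounds is not part of the miRNA. No gene, exon or intron is annotated at them in the tables. The aly-miR170* record lies on chromosome A03, plus strand, from 21906713 to 21906734, with no other record of the family within 300 nt. The miR171a type lies on the minus strand of chromosome A07 from 12546273 to 12546294 (ptc-miR171c), of A04 from 912669 to 912690 (ptc-miR171k) and of A09 from 1099443 to 1099464 (ath-miR171a). The same sequence is listed without a count on A01 (vvi-miR171h). None of these mature records had a counted miRNA* within 300 nt.

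For the miR171b type a mature and a partner sequence were listed side by side at 2 loci. On the minus strand of chromosome A06, aly-miR171b* (4089378 to 4089399, 2 reads in HT) lies 42 nt from ath-miR171b (4089315 to 4089336), which has the mature sequence and no count. On chromosome A09, smo-miR171a (34781239 to 34781260, plus strand, 89 and 73 reads) lies 41 nt from the record aqc-miR171c, which the table puts on the minus strand without a count. The reverse complement of the aqc-miR171c sequence shares 20 bases with the miR171b* sequence, so that on the plus strand it reads as the partner arm. The aly-miR171c* record lies alone on chromosome A08 from 20104798 to 20104819.

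The 37 records without a count held 24 further sequences and 3 records whose sequence is counted elsewhere, so a missing count does not always mean that the sequence had no reads. The most often listed sequence of the family was that of the miR170 type, on 7 records and 2 chromosomes (A01 and A06), none with a count. The ath-miR170 record is 1 of them, and the sequence listed for it differs from the Arabidopsis miR170 entry by T14C. Joined where they lay within 300 nt, all 44 records formed 19 loci, of which 7 had a counted record. In 4 of the loci the records stood on both strands. At A07, for example, zma-miR171b* covers 20 nt of ptc-miR171c on the opposite strand.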

How the data were processed

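The authors removed adaptors, low-quality and low-complexity reads, discarded reads that matched non-coding RNAs of Rfam with BLASTN, and searched what was left against the plant entries of miRBase. The sources name different releases (18 in the table header, 19 in the description of the tables, 21 in the study's methods). Version 1.1 of the B. rapa sequence served for positions. The deposited raw counts are whole numbers of reads per record and library, and the deposited TPM values are these counts per 1000000 reads of the library, per the file headers. The authors' own log2 fold changes, p-values and q-values were not used, nor were 4 TPM columns of the candidate tables.

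Quoted line breaks were joined. Library totals were recovered from counts and TPM of the known miRNAs, and the largest deviation of a value from its total was 1.0e-06 percent. Each record was compared with Fisher's exact test (two-sided, SciPy 1.17.1, Python 3.11.15), adjusted over 169 records by the Benjamini-Hochberg method, with a floor of 3 reads. Intervals are at the 95% level and exact. Without replicates no dispersion could be estimated, and no count model was used. In simulated counts of the comparison of HT with HS over 169 records, 59 of 60 records changed 4-fold were recovered with their direction, and 0 of 109 unchanged records were called. These were Poisson counts at the pooled level of each record, without variation between plants or libraries. The changed records all had at least 50 reads, so most unchanged records had few reads and could hardly be called. The simulation cannot tell how often false calls arise in real libraries, or whether changes smaller than 4-fold would be found.

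Every record of numbers 170 and 171 with counts was named, as were the comparison families and the 3 numbers nearest in fold change. The members and lists were chosen with earlier results of these data known. Alternatives changed the library size, thresholds, minimum of reads, test, pseudocount and counting of shared sequences.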

Additional observations from a re-analysis of the deposited data

How the results depend on the processing

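None of the 20 alternatives for single members led to a call. Under 3 other library sizes (sum of known miRNA counts, median of ratios, trimmed mean of log2 ratios, in this order) the fold change was 0.783, 0.789 and 0.828 for aly-miR170* and 0.907, 0.915 and 0.959 for smo-miR171a, in place of 1.02 and 1.18. For ptc-miR171k it was 0.962 and 0.971 under the first 2 of them. These 8 values changed direction and 12 others did not. The summed fold change moved from 1.06 to 0.814, 0.821 and 0.862. By construction these library sizes shift each log2 fold change by -0.38, -0.37 and -0.30. The called records split 9 higher and 9 lower, 10 and 9, and 11 and 9, in place of 14 and 7. A fold change threshold of 3 left 10 of the 21 called records, which takes in fewer by construction. With each sequence once, the miRNA* share was 79.4% in HT and 82.2% in HS, and without the most abundant miRNA* record it was 2.22% and 0%. The other alternatives kept the counts within 1.5 times and the ratios to other families within their intervals. No paired analysis was possible because each genotype has 1 library. Depth limits the mature members, and says nothing about variation between plants.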

Other observations

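In the whole table, 13 sequences stood on more than 1 counted record, 31 records in all. For most of the abundant ones the records had similar counts, as with the 3 records of the miR171a type. An exception was the pair crt-miR166a and crt-miR166b, whose counts differed by 51.9 times in HT and by 181.9 times in HS although the listed sequence is the same. Among the 54 sequences of the candidate miRNAs, none shared 15 or more bases in a row with a counted miR170 or miR171 sequence or its reverse complement, and the longest shared run was 8 bases.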
